A study of Mus musculus with 4 samples.

Results

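Genes of phosphoinositide 3-kinase (PI3K), AKT, mTOR and AMPK signalling were examined in mouse T helper 17 (Th17) cells, a CD4 lineage named for its secretion of IL-17. The set is a list of 48 gene symbols, which were matched by gene ID to the 50600 genes of the deposited count tables, and all 48 were found. All 4 libraries form a single group, primary Th17 cells from the mouse strain C57BL/6NJ, with no treatment contrast, genotype change or control group in the labels. Biological replicates are numbered 1 to 4 and share 1 donor label, age and sex are not given, and the labels do not say whether the libraries came from separate animals or cultures, so the spread between them may be technical in part. The assay is labelled total RNA-seq, although the linked library protocol names poly(A) selection, and no drug, cytokine or amino acid condition is set against another.

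PI3K is a lipid kinase that T cells activate below the antigen receptor, CD28 and cytokine receptors. Its product recruits PDK1 and AKT to the membrane, and AKT inhibits the TSC complex, a brake on the small GTPase Rheb that activates mTOR complex 1. Amino acids act on the same complex at the lysosome through the Rag GTPases, while AMPK senses low cellular energy and restrains it. In T cells, mTOR complex 1 is known for its part in growth, glycolysis and Th17 differentiation.

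The libraries held 28555677, 36998648, 58104663 and 42896684 fragment counts in replicates 1 to 4. The markers matched the label: Cd4 was at 346 ± 16.1 TPM, Il17a at 4436 ± 179 and Il17f at 11570.0 ± 117 (mean ± SD, n = 4), with TPM being counts per exon length, scaled to the same sum in every library. Markers of CD8 T cells, B cells, macrophages, neutrophils, NK cells and plasmacytoid dendritic cells (Cd8a, Cd79a, Lyz2, S100a8, Ncr1 and Siglech) had between 0 and 13 counts over all 4 libraries together. Replicates 1 and 2 stood apart from 3 and 4 in sex-linked genes, with the X-linked RNA Xist at 132, 131, 0.329 and 0.496 TPM in replicates 1 to 4 and the Y-linked Ddx3y at 0.428, 0.347, 58.9 and 57.3. By these genes, replicates 1 and 2 were female material and replicates 3 and 4 male. The libraries thus came from more than 1 animal despite the shared donor label, and each SD over them spans both sexes. Of the 48 genes, Rragb alone lies on chromosome X, and its levels in the libraries with high and low Xist overlapped, as given below.

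Nearly all genes of the list were detected. Of the 48 genes, 45 reached 1 TPM in all 4 libraries, against 47.0% of all 21764 protein-coding genes. The 3 others were Pik3r3, Deptor and Prkaa2, and the level of Pik3r3 may be understated, as given below. The list was chosen with earlier results of these data known, so the contrast with all genes is a description and no test. Mean levels ran from 0.490 TPM for Prkaa2 to 317 TPM for Akt1, with 5 genes at 100 TPM or more, 38 between 5 and 100, and 5 under 5. The median over the 48 was 32.3 TPM, beside 31.3 TPM over the 10223 protein-coding genes that reached 1 TPM in all libraries. By the summed exon lengths of the deposited tables, the 5 highest were Akt1, Prkag1, Gsk3a, Rraga and Pik3cd. With the length of each gene's principal annotated transcript, Akt1 stayed first, Gsk3a (192 TPM) stood above Prkag1 (184 TPM), and Lamtor1 (137 TPM) stood above Rraga (116 TPM). Along the order of the 48 means, 18 of 47 neighbouring genes had library ranges that did not overlap, and 29 overlapped, so many ranks are not settled by these libraries. In bulk RNA, a low level per cell and expression in a few cells cannot be told apart.

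**Figure D1:**
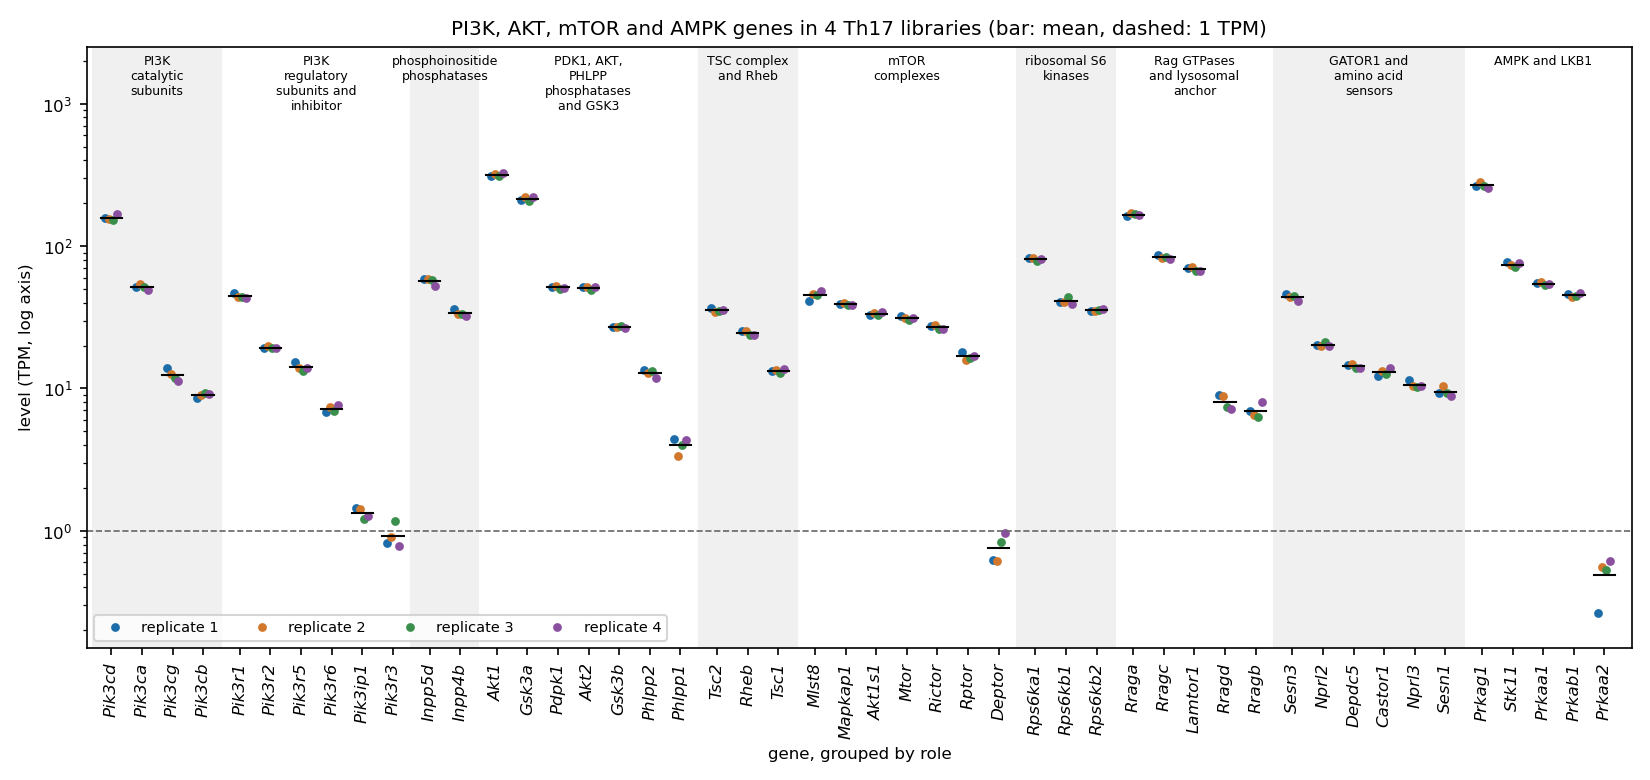
Level of each of the 48 genes in TPM (log axis) in each of the 4 libraries, grouped by role, with a bar at the mean and a dashed line at 1 TPM. The points of a gene lie close together for most genes, Akt1 at 317 TPM is the highest, and Pik3r3, Deptor and Prkaa2 are the only genes with a library under the line.

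Among the catalytic subunits of class I PI3K, the delta subunit led. Pik3cd (ENSMUSG00000039936.18, chromosome 4 from 149649168 to 149702571), the leukocyte-enriched delta subunit that acts below antigen receptors, was at 157, 154, 154 and 168 TPM in replicates 1 to 4. Pik3ca, the widely expressed alpha subunit, was at 51.8, 53.9, 51.7 and 49.0 TPM. These ranges did not overlap, and replicate 4 was the highest library for Pik3cd and the lowest for Pik3ca. Pik3cg, the gamma subunit that acts below G protein-coupled receptors, was at 14.0, 12.7, 11.8 and 11.3 TPM. Pik3cb, the beta subunit, was at 8.54, 8.92, 9.26 and 9.14 TPM. Every library of Pik3cg lay above every library of Pik3cb. As a share of the summed TPM of the 4 catalytic genes, Pik3cd took 68.4% ± 1.58 (SD, n = 4), Pik3ca 22.3% ± 1.20, Pik3cg 5.39% ± 0.530 and Pik3cb 3.88% ± 0.165. Within each library, Pik3cd exceeded Pik3cg by a log2 ratio of 3.66 ± 0.17, and Pik3ca exceeded Pik3cb by 2.51 ± 0.09, each in 4 of 4 libraries. For these and the other fixed pairs, 16 in all, the exact two-sided sign-flip test gave 0.125, the smallest value that 4 libraries allow (2 of 16 sign patterns), and 0.125 after Benjamini-Hochberg adjustment over those pairs. No pair could therefore reach 0.05, and the pairs are read by their size and the number of libraries.

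The regulatory subunits had a leader as well. Pik3r1, the alpha regulatory subunit that stabilises class IA catalytic subunits and holds them inactive until a receptor binds, was at 46.5, 43.6, 43.6 and 43.2 TPM. Pik3r2, the beta regulatory subunit, was at 19.2, 19.8, 19.2 and 19.1 TPM. The difference was a log2 ratio of 1.19 ± 0.06, in 4 of 4 libraries, and Pik3r1 took 68.6% ± 0.916 of the summed TPM of the 3 class IA regulatory genes. Pik3r3, the third of them, was at 0.818, 0.903, 1.17 and 0.787 TPM, from 37, 53, 108 and 54 counts. Its 252 pooled counts carry an exact Poisson 95% interval of 222 to 285, which covers counting error only, and 24.3% of its exon bases are shared on the same strand with another annotated gene, Gm49337, whose own count was 0 in every library. By default, the counting tool leaves out fragments that match both genes, so the level of Pik3r3 may be understated. How many fragments were left out was not measured.

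The class IB adaptors, partners of the gamma subunit, were both present. Pik3r5 was at 15.2, 13.8, 13.2 and 14.0 TPM and Pik3r6 at 6.83, 7.43, 6.98 and 7.62 TPM. Pik3r5 was higher in 4 of 4 libraries, by a log2 ratio of 0.95 ± 0.13, and took 66.1% ± 1.99 of their sum. Pik3ip1, a membrane protein that inhibits PI3K in T cells, was low, at 1.45, 1.42, 1.21 and 1.27 TPM, and lay below the catalytic subunits in every library.

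The 2 phosphatases of PI3K lipid products among the 48 genes were both well above the low end of the list. Inpp5d encodes SHIP1, the haematopoietic phosphatase that removes the 5-phosphate from the PI3K product, and was at 58.9, 58.8, 57.9 and 52.8 TPM. Inpp4b, which removes the 4-phosphate in the next step, was at 36.0, 33.3, 33.4 and 32.2 TPM. By the exon lengths of the deposited tables, Inpp5d was higher by a log2 ratio of 0.76 ± 0.05 in 4 of 4 libraries. That order depends on the length used: the ratio was -0.28 with the length of the principal annotated transcript (APPRIS, GENCODE M21) and -0.0221 in CPM, counts scaled to library size with no length correction. The 2 genes are therefore not ranked here.

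Akt1 was the highest gene of the set. Akt1 (ENSMUSG00000001729.14, chromosome 12 from 112653821 to 112674884), the main AKT kinase of most tissues, was at 310.3, 318, 312 and 325 TPM, first of the 48 in every library and first also with principal transcripts (335 TPM). Akt2, best known for insulin signalling, was at 51.2, 51.6, 49.3 and 51.8 TPM. The log2 ratio was 2.63 ± 0.03, in 4 of 4 libraries. Replicate 4 was the highest library for both genes, and every library of Akt1 lay above every library of Akt2. Pdpk1, which encodes the kinase PDK1 that phosphorylates the activation loop of AKT, was at 51.3 ± 1.07 TPM (SD, n = 4), a mean within 1 SD of that of Akt2.

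PHLPP phosphatases remove the phosphate that mTOR complex 2 puts on AKT. Phlpp2 was at 13.4, 12.9, 13.2 and 11.9 TPM and Phlpp1 at 4.39, 3.36, 3.98 and 4.35 TPM. The log2 ratio of Phlpp1 over Phlpp2 was -1.66 ± 0.20, below 0 in all 4 libraries, and replicate 2 was the lowest library for Phlpp1. GSK3 kinases are inhibited by AKT and act on glycogen synthase and beta-catenin. Gsk3a was at 212, 219, 208 and 222 TPM and Gsk3b at 27.0, 26.9, 27.7 and 26.6 TPM. Gsk3a exceeded Gsk3b by a log2 ratio of 2.99 ± 0.06 in 4 of 4 libraries and took 88.8% ± 0.443 of their sum. Without length correction its share was 70.1%, since the exons of Gsk3b sum to 9831 bases and those of Gsk3a to 2900.

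**Figure D2:**
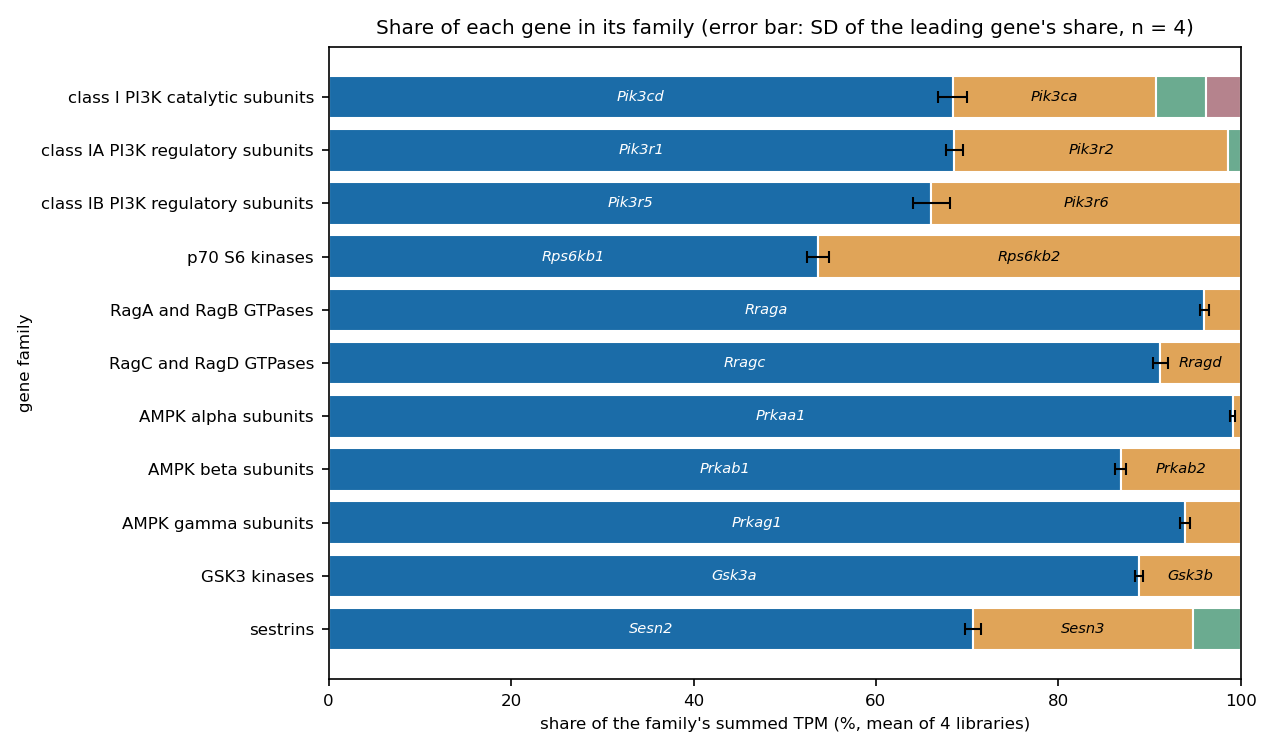
Share of each gene in the summed TPM of its family (horizontal axis, percent, mean of 4 libraries), with an error bar for the SD of the leading gene. By exon length, Prkaa1, Rraga, Prkag1 and Rragc hold over 90% of their families, while Rps6kb1 holds 53.6% of the p70 S6 kinases. Without length correction Prkag1 (79.4%) and Rragc (87.0%) fall under 90%.

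The TSC complex and Rheb link AKT to mTOR complex 1. Tsc2, the subunit that acts on Rheb and that AKT phosphorylates, was at 36.9, 34.6, 34.8 and 35.6 TPM. Tsc1, which stabilises it, was at 13.2, 13.4, 12.8 and 13.7 TPM. The log2 ratio of Tsc1 over Tsc2 was -1.41 ± 0.05, with Tsc1 lower in all 4 libraries. It was smaller with principal transcripts, at -0.79, and in CPM, at -0.44. Rheb was at 24.6 ± 0.962 TPM by the exon length of 7721 bases and at 74.0 TPM with the 1784-base principal transcript, the largest effect of length in the set. With principal transcripts the levels of detected protein-coding genes changed by a median factor of 0.889 (log2 -0.17). Relative to that median, 5 of the 48 genes moved up by over 1.5 times (Rheb, Inpp4b, Lamtor1, Nprl3 and Rptor) and Rps6kb2 moved down. The principal transcript of Rps6kb2 is longer than the exons on which its fragments were counted, as given below.

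The mTOR complexes were all expressed, with Deptor far below the rest. Mtor, the kinase of both complexes, was at 31.2 ± 0.711 TPM (SD, n = 4). Mlst8, a subunit of both, was at 41.0, 46.4, 45.0 and 48.03 TPM, and replicate 1 was its lowest library. It had the highest mean of the group by exon length, but with principal transcripts its 27.4 TPM lay below Akt1s1 (40.5 TPM) and Mapkap1 (35.4 TPM). The principal transcript of Mlst8 has 3855 bases against 3366 in the deposited tables, so it includes bases on which no fragment was counted. The rank of Mlst8 is thus not settled. Mapkap1, the mTOR complex 2 subunit SIN1, was at 39.0 ± 0.665 TPM, and Akt1s1, the mTOR complex 1 inhibitor PRAS40, at 33.4 ± 0.861. Rictor, the defining subunit of complex 2, was at 27.6, 27.8, 26.0 and 26.0 TPM, and Rptor, the defining subunit of complex 1, at 17.9, 15.96, 16.3 and 16.9 TPM. By exon length Rptor was lower in 4 of 4 libraries (log2 ratio -0.68 ± 0.08). With principal transcripts it was higher, at 0.35, so which scaffold was the more abundant transcript is not settled.

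Deptor, an inhibitor that binds mTOR, stood far below its group. It was at 0.621, 0.610, 0.838 and 0.967 TPM, from 47, 60, 130 and 111 counts. Its pooled count of 348 carries an exact Poisson 95% interval of 312 to 387 (counting error only), so the transcript was detected in all 4 libraries but at under 1 TPM in each. Its highest library was under every library of the next gene of the group, Rptor.

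S6 kinases carry the signal to the ribosome. Rps6kb1, the main p70 S6 kinase downstream of mTOR complex 1, was at 40.2, 40.7, 43.8 and 39.1 TPM, and its paralogue Rps6kb2 at 34.8, 34.9, 35.8 and 36.0 TPM. Rps6kb1 was higher in 4 of 4 libraries, by a log2 ratio of only 0.21 ± 0.07, the smallest of the 16 pairs. The ratio was 1.76 with principal transcripts, where Rps6kb2 has 4586 bases against 2445 in the deposited tables. That transcript is longer than the exons on which fragments were counted, so 1.76 mixes annotations and does not settle the size of the difference. Rps6ka1, the ribosomal S6 kinase RSK1 of the ERK pathway, which also acts on TSC2 and S6, was at 82.8, 82.6, 78.0 and 81.7 TPM, above both p70 genes in every library.

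**Figure D3:**
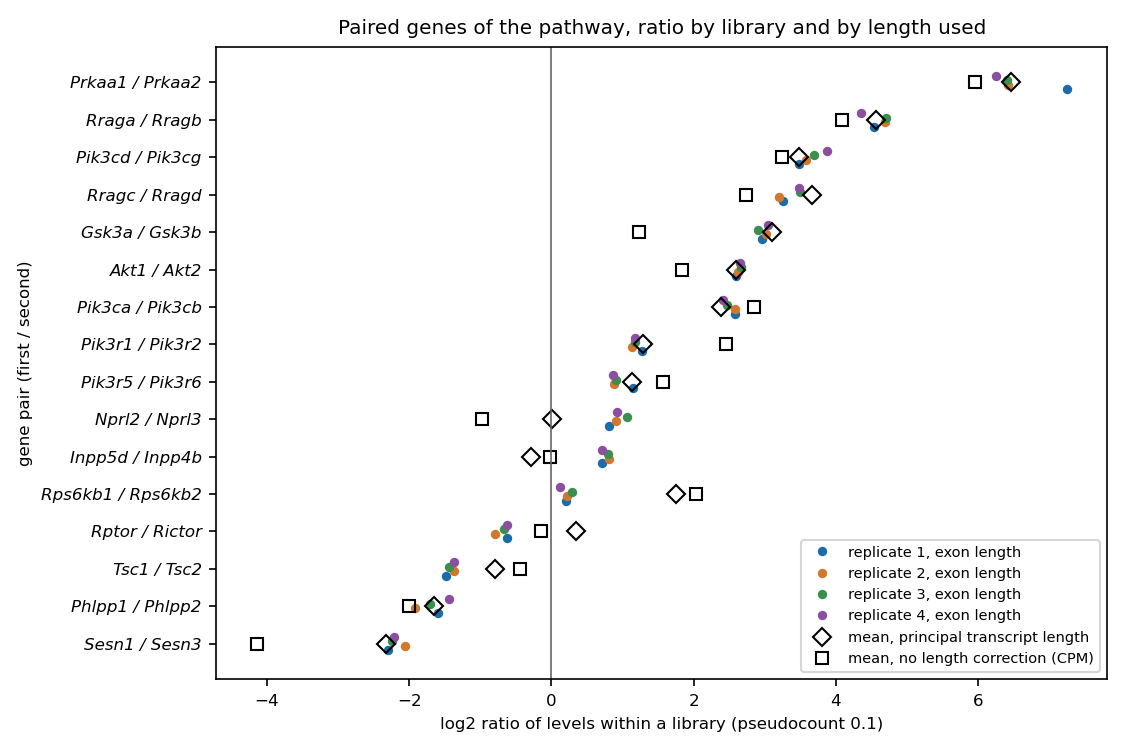
Log2 ratio of the first to the second gene of 16 fixed pairs (horizontal axis), with a point for each library by exon length and open symbols for the mean with principal transcript length or without length correction. The points of a pair keep 1 side of 0 in all 16 pairs, and open symbols cross 0 for Inpp5d over Inpp4b, Rptor over Rictor and Nprl2 over Nprl3.

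The Rag GTPases, which bring mTOR complex 1 to the lysosome as dimers of RagA or RagB with RagC or RagD, were each represented mainly by 1 gene. Rraga (ENSMUSG00000070934.6, chromosome 4 from 86575668 to 86577285) was at 162, 170.1, 168 and 166 TPM. Rragb, its X-linked paralogue, was at 6.90, 6.48, 6.31 and 8.01 TPM, with the highest value in replicate 4 and the lowest in replicate 3, both of them libraries with Xist under 1 TPM. Rraga exceeded Rragb by a log2 ratio of 4.57 ± 0.16 in 4 of 4 libraries and took 96.0% ± 0.451 of their sum. Rragc was at 86.0, 82.4, 84.0 and 81.4 TPM and Rragd at 8.95, 8.87, 7.36 and 7.18 TPM. Rragc exceeded Rragd by 3.36 ± 0.15 and took 91.2% ± 0.861 of their sum. Rragd was higher in replicates 1 and 2 than in 3 and 4, the division seen for Xist, as were other genes given with the spread below. Lamtor1, the lysosomal anchor of the Ragulator complex that holds the Rag dimers, was at 68.7 ± 2.22 TPM (SD, n = 4) by exon length and at 137 TPM with its principal transcript.

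GATOR1 switches RagA and RagB off when amino acids are scarce. Its subunits were at 14.3 ± 0.504 TPM for Depdc5, 20.3, 19.8, 21.3 and 19.9 TPM for Nprl2 and 11.5, 10.5, 10.2 and 10.4 TPM for Nprl3. Nprl2 was higher than Nprl3 in 4 of 4 libraries by exon length (log2 ratio 0.93 ± 0.10). The ratio was 0.0145 with principal transcripts and -0.97 in CPM, so the order of these subunits rests on the length. Castor1, a cytosolic arginine sensor, was at 12.97 ± 0.741 TPM (SD, n = 4).

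Sestrins bind GATOR2 and restrain mTOR complex 1, and Sestrin2 is a leucine sensor. Sesn3 was at 46.3, 43.5, 44.4 and 40.9 TPM and Sesn1 at 9.36, 10.3, 9.34 and 8.79 TPM. Sesn1 was lower in 4 of 4 libraries (log2 ratio -2.20 ± 0.10). Sesn2, from the list of other pathway genes, was above both at 134, 123, 129.5 and 126 TPM, and took 70.6% ± 0.891 of the summed TPM of the 3 genes. Without length correction that share was 38.7% and Sesn3 led, because the exons of Sesn3 sum to 15269 bases.

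AMPK, a trimer of an alpha, a beta and a gamma subunit, was represented by a single main gene at each position. The alpha genes differed the most of all 16 pairs. They are close in sequence where the kinase domain begins, so the stretch with their longest identical run is shown to let a reader judge whether fragments of one could be counted for the other. Both lines are 90 coding bases of GENCODE M21 transcripts, from coding base 34 of Prkaa1 and coding base 1 of Prkaa2, 5′ to 3′, with the 8 differing bases in capitals.
Prkaa1: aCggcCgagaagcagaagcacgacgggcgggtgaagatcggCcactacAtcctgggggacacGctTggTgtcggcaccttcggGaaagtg
Prkaa2: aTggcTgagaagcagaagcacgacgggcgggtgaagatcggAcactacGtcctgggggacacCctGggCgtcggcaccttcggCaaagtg
The longest identical run between any transcripts of the 2 genes was 35 bases, also the longest of all 16 pairs. No window of 100 bases was shared between members of a pair.

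Prkaa1, the alpha1 catalytic subunit that is the main one of T cells, was at 55.1, 55.8, 53.2 and 53.9 TPM. Prkaa2, the alpha2 subunit prominent in skeletal muscle, was at 0.265, 0.555, 0.531 and 0.611 TPM, from 18, 49, 74 and 63 counts. The log2 ratio was 6.58 ± 0.45 in 4 of 4 libraries with the pseudocount of 0.1 TPM and 5.22 with one of 1 TPM, and Prkaa1 took 99.1% ± 0.284 of the sum. Replicate 1 was the lowest library for Prkaa2, and its 204 pooled counts carry an exact Poisson 95% interval of 177 to 234 (counting error only).

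Promoters of these genes are shown because their transcripts differ the most, as 250 bases up to the annotated start from RefSeq (GRCm38.p6, the build that mm10 names), with each CpG dinucleotide in capitals (the letters CG, which read the same on both strands).
Prkaa1, chr15:5143611-5143860, plus strand: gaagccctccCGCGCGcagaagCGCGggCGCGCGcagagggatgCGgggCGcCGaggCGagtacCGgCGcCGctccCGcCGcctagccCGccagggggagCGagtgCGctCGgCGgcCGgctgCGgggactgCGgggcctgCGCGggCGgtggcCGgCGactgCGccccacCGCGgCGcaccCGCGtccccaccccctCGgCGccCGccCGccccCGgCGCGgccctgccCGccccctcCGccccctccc
Prkaa2, chr4:105109899-105110148, minus strand: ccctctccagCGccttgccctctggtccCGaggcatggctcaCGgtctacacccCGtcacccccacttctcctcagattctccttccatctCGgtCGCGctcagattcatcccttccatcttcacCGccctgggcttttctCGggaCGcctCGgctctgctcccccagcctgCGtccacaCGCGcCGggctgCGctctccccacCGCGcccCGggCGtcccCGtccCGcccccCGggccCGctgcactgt
The Prkaa1 promoter held 45 CpG and the Prkaa2 promoter 24, against a median of 6 over 32851 promoters of the same length. As many or more were in 0.4% of all promoters for Prkaa1 and in 11.98% for Prkaa2, so both lay above the median. Nothing about methylation or factor binding was measured.

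The other AMPK subunits had leaders too. Prkab1, the beta1 subunit, was at 45.4 ± 1.23 TPM (SD, n = 4), and Prkab2 of the list of other pathway genes was at 6.78, 7.25, 6.58 and 6.97 TPM, so that Prkab1 took 86.8% ± 0.636 of their sum. That share was 90.5% with principal transcripts and 79.8% without length correction. Prkag1, the gamma1 subunit that binds AMP, was at 263, 283, 264 and 256 TPM, and replicate 2 was its highest library. Prkag2 was at 19.4, 16.8, 16.5 and 17.1 TPM, and Prkag3, the gamma subunit of skeletal muscle, had 0 counts in every library, which allows 3 counts in each. Prkag1 took 93.8% ± 0.545 of the summed TPM of the 3, but 88.6% with principal transcripts and 79.4% without length correction. Stk11, which encodes LKB1, the kinase that activates AMPK, was at 74.2 ± 2.59 TPM.

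Other genes of the pathway, a list of 41 outside the 48, gave a similar picture. All but Prkag3, 40 of them, reached 1 TPM in each library, and their median was 19.7 TPM. This list too was chosen with earlier results of these data known. By exon length, the 5 highest were Ddit4 at 221 ± 16.1 TPM (SD, n = 4), Cab39 at 213 ± 2.89, Sec13 at 181 ± 2.23, Lamtor5 at 166 ± 6.88 and Eif4ebp2 at 162 ± 5.83. With principal transcripts, Sec13 (296 TPM) and Cab39 (275 TPM) stood above Ddit4 (154 TPM). Without length correction, Ddit4 (116 CPM) lay below Seh1l (148 CPM) and Sesn2 (134 CPM) as well, so this order rests on the length. Ddit4 encodes REDD1, a stress-induced inhibitor of mTOR complex 1, Cab39 the LKB1 partner MO25, Sec13 a GATOR2 subunit that also serves in vesicle coats and nuclear pores, Lamtor5 a Ragulator subunit, and Eif4ebp2 a translation repressor that mTOR complex 1 inhibits. The lowest after Prkag3 were Prr5 at 1.47, 2.78, 2.24 and 2.26 TPM, a subunit of mTOR complex 2, and Slc38a9 at 3.84, 4.04, 3.60 and 3.202 TPM, a lysosomal arginine sensor.

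The last question was how far the 48 genes differed between the 4 libraries. The highest library exceeded the lowest by under 25% in CPM for 43 of the 48 genes (89.6%), against 75.4% of the 12434 genes that passed edgeR's filter on low counts, and all 48 passed it. The median ratio was 1.09 for the 48 and 1.11 for all genes tested. Spread follows level, so the median is no mark of the set: beside genes of like level in 25 bins, 21 of the 48 had an SD above the median of their bin and 27 had not, and Prkaa2 and Pik3cg lay above its 95th percentile. The widest genes were Prkaa2, with a highest CPM 2.32 times the lowest, and Deptor at 1.59 times.

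**Figure D4:**
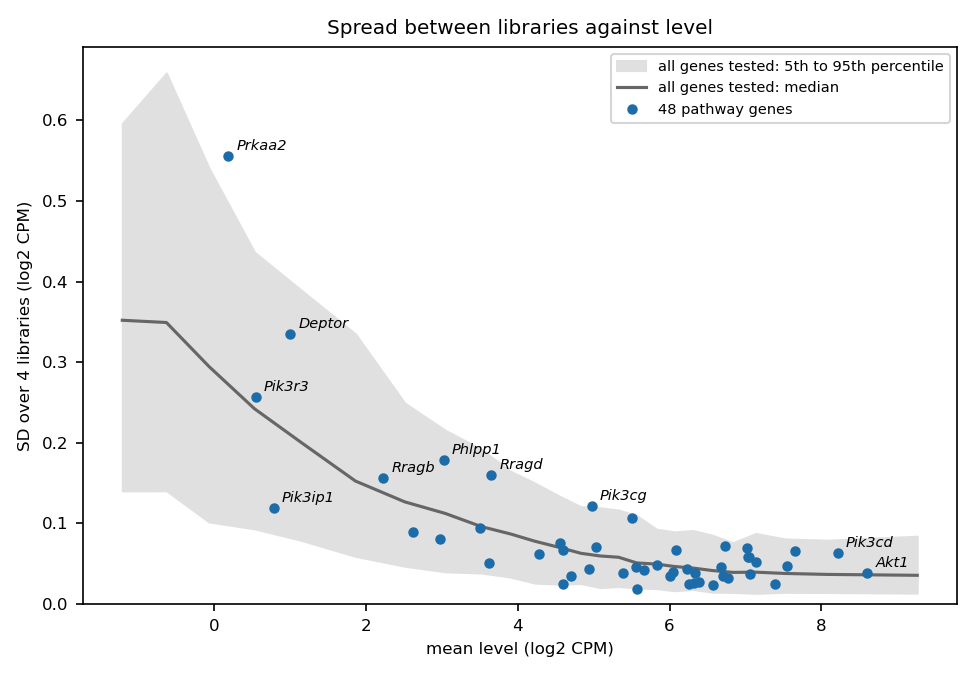
SD of log2 CPM over the 4 libraries (vertical axis) against mean log2 CPM (horizontal axis) for the 48 genes as points, over the median (line) and the range from the 5th to the 95th percentile (band) of all 12434 genes tested. The points follow the band, with Prkaa2 and Pik3cg above the 95th percentile of their bins.

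A test of each gene's spread against edgeR's trended dispersion (negative binomial deviance, Benjamini-Hochberg adjustment over 12434 genes) called 0 of the 48 genes variable at an adjusted p under 0.05, against 0.523% of all genes. At an unadjusted p under 0.05 the edgeR test passed 1 of the 48 (2.08%), Prkaa2, with an adjusted p of 1.0, against 4.48% of all genes. DESeq2 size factors in place of TMM also gave 0 of 48. A count of 0 calls does not show that the libraries were alike in these genes, least of all for differences under 25%. Of the 40 other pathway genes tested, 0 were called, and 2 had an unadjusted p under 0.05: Ddit4 and Pik3ap1, an adaptor of PI3K. Their adjusted p was 0.516 and 0.902 by the same edgeR fit. Set against counting noise alone, with a Poisson deviance, 18 of the 48 (37.5%) passed, beside 36.6% of all genes, so the set did so about as often as any gene.

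Library by library, the 48 genes had small median shifts. On the log2 CPM scale, their median shift from each gene's mean was -0.0032, 0.0146, -0.0177 and -0.0058 in replicates 1 to 4, against 0.0006 to 0.0015 over all genes. Replicate 2 held the highest value of 15 genes and the lowest of 7, and replicate 3 the highest of 6 and the lowest of 14. Replicate 4 held the highest of 16 and the lowest of 16, and replicate 1 the highest of 11 and the lowest of 11. Along the division seen for Xist, 17 of the 48 genes were higher in TPM in both of replicates 1 and 2 than in 3 and 4, among them Pik3cg, Rragd and Inpp5d, against 23.4% of all genes tested. In the opposite direction were 3 genes, Deptor, Pik3cb and Rps6kb2, against 13.9% of all genes. In CPM scaled by TMM, 12 of the 48 were higher in replicates 1 and 2, beside 18.2% of all genes, and the same 3 were lower, beside 18.4%. Whether the division has a part in these differences was not tested. Among the genes that passed only the Poisson test, Pik3cg ran from 11.3 TPM in replicate 4 to 14.0 in replicate 1, and Pik3cd from 154 TPM in replicate 3 to 168 in replicate 4. By Dixon's ratio in TPM, 3 of the 48 genes had 1 library apart from the rest, beside 5.48% of all genes tested.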

How the data were processed

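Per the file headers, the authors deposited raw fragment counts per gene from featureCounts 1.4.6-p4 on paired reads with both ends mapped, counted reverse-stranded on GENCODE M13 exons. Per the labels the build is mm10. The counting command sets no option for multi-mapping or multi-overlap fragments, which the tool leaves out by default. Alignment files in those headers carry the tag star2; alignment settings were not found in these sources. Summed exon lengths come from the same tables. Symbols came from GENCODE M21 (50376 of 50600 IDs matched).

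TPM was computed here from counts and exon length. Alternatively, principal transcript lengths were used, a choice made after seeing the data, as was the comparison along the division seen for Xist. Those lengths came from GENCODE M21, while fragments were counted on M13 exons, so a principal transcript can be longer than the counted exons. Members, pairs, families and lists were chosen with earlier results of these data known. Pairs were compared as log2((TPM + 0.1)/(TPM + 0.1)) per library, with an exact sign-flip test. Spread was tested with edgeR 4.0.16 in R 4.3.3 (TMM, default filter, negative binomial deviance at the trended dispersion, 3 degrees of freedom, Benjamini-Hochberg over all genes) and tested on simulated data. DESeq2 1.42.0 gave alternative size factors. Genes named with values per library were those of the pairs, the highest and lowest of each role and those under 1 TPM. Pik3ip1 was given per library outside these rules. Of the other pathway genes, the 5 highest, the 3 lowest and those of a family were named, except that 1 gene, the family shares that need it and 1 marker are not reported here. Ddit4 and Pik3ap1 were also named for spread, the latter after its values were seen. Of the 48 genes, 45 matched the RefSeq promoter table. No 2 libraries were alike within counting error (chi-square per degree of freedom of 3.86 to 9.86). The value was 3.86 for replicates 1 and 2 and 5.4 for replicates 3 and 4. It was between 7.68 and 9.86 for pairs across the division seen for Xist, with sex-linked genes included.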

Additional observations from a re-analysis of the deposited data

Results flagged for a closer look

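Among 86 values checked for a library apart from the other 3 by Dixon's ratio, 6 passed. Chance gives about 1 in 20, and 5.48% of all 12434 genes passed in TPM. The genes were Pik3r1, at 46.5 TPM in replicate 1 against 43.2 to 43.6 in the others, Pik3r2, at 19.8 TPM in replicate 2 against 19.1 to 19.2, and Inpp5d, at 52.8 TPM in replicate 4 against 57.9 to 58.9.

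The log2 ratio of Pik3r5 over Pik3r6 was 1.15 in replicate 1 against 0.87 to 0.91 in the others, and the share of Pik3r5 in the sum of both was accordingly 69.0% there. The log2 ratio of Prkaa1 over Prkaa2 was 7.24 in replicate 1 against 6.25 to 6.41, where Prkaa2 rests on 18 counts.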

How the results depend on the processing

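Of 128 pair ratios under alternatives, 123 kept their direction with the smallest p their libraries allow, 1 was weaker and 4 reversed. In CPM, Inpp5d over Inpp4b turned to -0.0221 and Nprl2 over Nprl3 to -0.97. With principal transcripts, Inpp5d over Inpp4b turned to -0.28, Rptor over Rictor to 0.35, and Nprl2 over Nprl3 weakened to 0.0145. The cause beyond the length used was not tested. Ratios moved by over 1.5 times in 11 of 16 pairs in CPM and in 5 with principal transcripts, where Tsc1 over Tsc2 was -0.79 and Rps6kb1 over Rps6kb2 1.76. The last value rests on an Rps6kb2 transcript longer than the exons that were counted. A pseudocount of 1 TPM moved 1, Prkaa1 over Prkaa2, to 5.22. No reversal came from a pseudocount of 1 or 0.01 TPM or from leaving out a replicate. The number of genes at the threshold in every library was 43 at 5 TPM, 47 in CPM and 45 under the other alternatives run. The same gene led in every library in 11 of 11 families, and in 10 in CPM.

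Called variable were 65 of all genes and 0 of the 48. Over all genes the number was 113 with no filter, 123 at the common dispersion, 41 with a 1.5-fold ratio asked, 91 without chromosomes X and Y, 57 without mitochondrially encoded genes (chosen after seeing the data), 4550 by the Poisson deviance (18 of the 48) and between 32 and 49 with a replicate left out, lowest without replicate 4 (32) and then replicate 1 (35). Of the 48, 0 were called in each of these except the Poisson test. Without chromosomes X and Y, 47 of them were tested, since Rragb was left out. No paired analysis was possible because all libraries belong to 1 group. Depth limits Prkaa2, Pik3r3, Pik3ip1 and Deptor, with 204 to 348 pooled counts.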
